A study of Mus musculus with 4 samples.

Results

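Transfer RNA genes were examined for summits of p53 and of PPAR-alpha in mouse thymus. The members were all genes of biotype tRNA on chromosomes 1 to 19 in the RefSeq gene table of GRCm38.p6. They were 391 genes among 47038 genes of all kinds on these chromosomes, and genes closer than 1 kb were joined, which gave 287 loci. A locus counted when a summit, the base of highest pile-up in a called peak, lay within 1 kb of any of its tRNA genes. A symbol such as n-TPagg2 gives the amino acid by its letter (P, proline), then the anticodon and a copy number.

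All libraries came from thymus of p53 AD/AD mice, 4 weeks old, whose p53 protein is dimeric. Chromatin was precipitated with a p53 antibody for 2 libraries and with a PPAR-alpha antibody for 1, a further library is input, and no other genotype is among these samples. Labels do not say whether the p53 pair came from separate or pooled mice, so the gap between its members may be technical. Reads had 50 nt for p53 and input but 75 nt for PPAR-alpha, and read length therefore cannot be told apart from antibody. PPAR-alpha has no replicate, and no test between antibodies was made. Lists held 3608, 4767 and 4070 summits for p53 replicate 1, p53 replicate 2 and PPAR-alpha. Depth is unknown, and intervals cover counting error only.

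Transfer RNAs carry amino acids to the ribosome, and RNA polymerase III makes them from short genes that hold their own promoter. TFIIIC recognises internal elements, the A box and the B box, and TFIIIB then binds just before the gene and recruits the polymerase. In human cells p53 is known to repress this polymerase through TFIIIB. PPAR-alpha is a lipid-sensing nuclear receptor of fatty acid breakdown, and p53 is a transcription factor of the DNA damage response.

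The genes below show the internal promoter that these genes carry, in members with and without a summit. Of the 391 genes, 5 lay wholly inside a RefSeq promoter window or miRNA hairpin of GRCm38.p6, and their sequences are given 5′ to 3′ with the anticodon and the B box core in capitals. The core searched was GTTCNANNC, on both strands. The first pair had a summit within 1 kb and the other three had none in any list.
n-TTagt9 (threonine, chr7:35234770-35234843, minus strand): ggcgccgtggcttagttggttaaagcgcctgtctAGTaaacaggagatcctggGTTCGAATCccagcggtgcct
n-TRtcg5 (arginine, chr7:79466419-79466491, plus strand): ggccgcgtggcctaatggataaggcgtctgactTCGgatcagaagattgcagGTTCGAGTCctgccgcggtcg
n-TAagc16 (alanine, chr13:21222586-21222657, plus strand): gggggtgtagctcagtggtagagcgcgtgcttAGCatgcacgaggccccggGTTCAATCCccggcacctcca
n-TVcac9 (valine, chr13:23446142-23446214, minus strand): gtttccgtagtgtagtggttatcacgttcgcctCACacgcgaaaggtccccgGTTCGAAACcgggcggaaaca
n-TItat14 (isoleucine, chr13:21896938-21897031, minus strand): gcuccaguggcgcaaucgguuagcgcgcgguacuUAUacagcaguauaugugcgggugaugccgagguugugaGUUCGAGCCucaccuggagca

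The last is written as RNA because RefSeq gives the same bases as the hairpin of Mir1983. All 5 held the core, whether or not a summit lay near, so its presence did not separate them. The same core was found in 9.32% of the 32851 promoter windows of 300 bases in the table. The PPAR-alpha summit of n-TTagt9 lay 42 bp before the gene on its own strand and had a score of 4.13, and no p53 summit lay within 1 kb. Scores are the authors' values, read as −log10 of a p- or q-value, and serve here to describe summits within a list.

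A window of the Polr3e promoter shows a tRNA gene beside a polymerase III subunit gene. It is chr7:120917528-120917827 on the plus strand, with the 71 bases that belong to the leucine gene n-TLaag4 in capitals.
Polr3e window: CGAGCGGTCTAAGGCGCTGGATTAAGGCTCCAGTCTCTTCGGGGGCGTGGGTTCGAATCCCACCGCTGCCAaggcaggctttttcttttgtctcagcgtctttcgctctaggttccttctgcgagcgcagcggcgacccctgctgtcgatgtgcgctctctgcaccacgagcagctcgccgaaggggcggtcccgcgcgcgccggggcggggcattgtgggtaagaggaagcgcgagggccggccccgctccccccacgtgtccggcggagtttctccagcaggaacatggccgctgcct

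The PPAR-alpha summit there lay at 120917471, 46 bp before n-TLaag4 and 307 bp from the Polr3e gene, with a score of 2.57. Neither p53 list had a summit within 1 kb of n-TLaag4. Polr3e itself encodes a subunit of the enzyme that transcribes tRNA genes.

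How many tRNA loci had a summit? PPAR-alpha summits lay at 64 of 287 loci, or 22.3% (exact Clopper-Pearson 95% interval 17.6 to 27.6%). The p53 summits lay at 33 loci in replicate 1, or 11.5% (8.05 to 15.8%), and at 35 in replicate 2, or 12.2% (8.64 to 16.6%). The p53 replicates differed by less than their counting intervals, and PPAR-alpha lay above both intervals. Counted as single genes, 48 of the 391 had a summit in replicate 1, 67 in replicate 2 and 116 in PPAR-alpha. These are 12.3%, 17.1% and 29.7%, beside a background of 7.28%, 9.15% and 7.52% of all genes on these chromosomes.

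Most genes of all kinds are far longer than a tRNA gene (median 73 bp), so a longer stretch is searched for them. The 4174 other genes of at most 200 bp give windows of nearly the same length. Among them the background was 2.08%, 2.35% and 1.84%. Of snoRNA genes, which guide the modification of ribosomal RNA, 1.32% had a PPAR-alpha summit, and of miRNA genes 2.73%. Protein-coding genes, searched over their whole length and 1 kb beyond, had a summit in 13.3%, 16.7% and 13.2% of cases. The tRNA share in the p53 lists was thus near that of protein-coding genes and above that of short genes, and the PPAR-alpha share was above both. These are descriptions, with no test, since genes are not replicates and neighbours share summits.

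**Figure D1:**
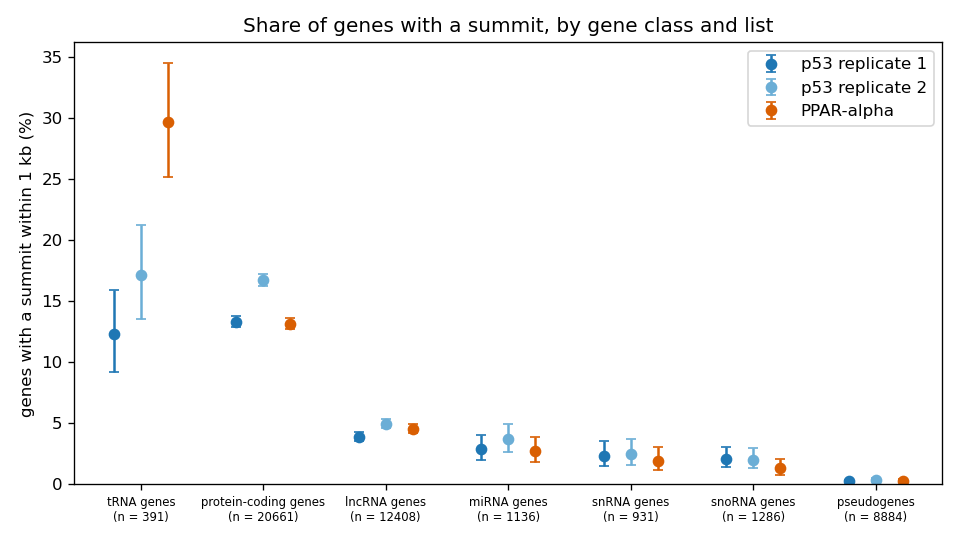
Percentage of genes (y axis) with a summit within 1 kb, by gene class (x axis, with the number of genes) and list; points are the shares and bars the exact 95% binomial intervals. The PPAR-alpha point of tRNA genes stands at 29.7%, above its other classes, and the p53 points at 12.3% and 17.1%.

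Which lists held the same loci? A summit of at least 1 list lay at 76 of the 287 loci, and 211 had none. All 3 lists met at 13 loci, PPAR-alpha and replicate 1 without replicate 2 at 13, and PPAR-alpha and replicate 2 without replicate 1 at 13. PPAR-alpha stood alone at 25 loci, replicate 1 at 3, replicate 2 at 5, and the p53 pair without PPAR-alpha at 4. Both p53 replicates thus had a summit at 17 loci, or 5.92% (3.49 to 9.31%), which is 51.5% of the replicate 1 loci and 48.6% of the replicate 2 loci. PPAR-alpha had a summit at 78.8% of the replicate 1 loci and 74.3% of the replicate 2 loci, and each p53 replicate at 40.6% of the PPAR-alpha loci. How often the lists meet over all genes was not counted, so these overlaps are not shown to be particular to tRNA loci. Whether the 3 lists were called against the same input is not given in the sources used here, and its part in the overlap was not tested.

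Where did summits lie within a locus? PPAR-alpha summits lay in or close to the tRNA genes. The nearest PPAR-alpha summit was inside the gene at 19 loci and within 100 bp at 51 of 64, or 79.7%, with a median distance of 33 bp. In p53 replicate 2 it was inside the gene at 6 loci and within 100 bp at 17 of 35, or 48.6%, with a median of 104 bp. In p53 replicate 1 no summit lay inside a tRNA gene, 8 of 33 were within 100 bp, or 24.2%, and the median was 173 bp. A distance of 100 to 250 bp held 13 replicate 1 loci, 11 replicate 2 loci and 5 PPAR-alpha loci.

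At the loci that lists share, PPAR-alpha lay nearer than replicate 1 at most loci and nearer than replicate 2 at about as many as not. At the 26 loci of replicate 1 and PPAR-alpha, the PPAR-alpha summit was the nearer one in 21, with medians of 22 bp for PPAR-alpha and 151 bp for p53. At the 26 loci of replicate 2 and PPAR-alpha it was the nearer one in 14, with medians of 29.5 and 69.5 bp. At the 13 loci of all 3 lists it was nearer than the replicate 1 summit at 9 and nearer than the replicate 2 summit at 6. The distances above are the nearest over all genes of a locus. Counted by single tRNA genes with a summit within 1 kb, the share within 100 bp was lower. It was 16.7% in replicate 1, 28.4% in replicate 2 and 49.1% in PPAR-alpha. At single protein-coding gene boundaries with a summit within 1 kb, the share within 100 bp was 20.1% in replicate 1, 23.2% in replicate 2 and 21.0% in PPAR-alpha. Of 931 snRNA genes, 18 had a PPAR-alpha summit within 1 kb, and for 15 of these (83.3%) it lay within 100 bp. In the p53 lists those shares were 31.8% of 22 snRNA genes in replicate 1 and 47.8% of 23 in replicate 2. Close placement in PPAR-alpha was thus not particular to tRNA genes. Read length differed between the antibodies, and its part in these distances was not tested.

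**Figure D2:**
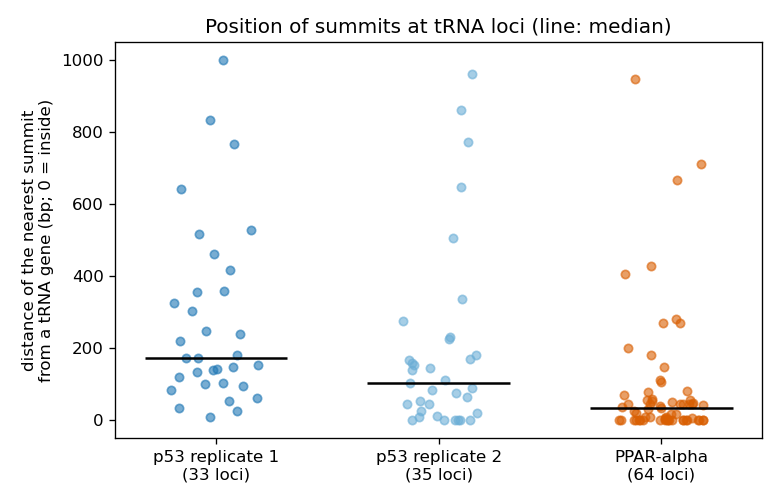
Distance in bp (y axis) from a tRNA gene to the nearest summit for each locus with a summit within 1 kb, by list (x axis); points are loci, 0 is inside the gene, and the line is the median. The medians are 173, 104 and 33 bp for p53 replicate 1, p53 replicate 2 and PPAR-alpha.

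The 2 p53 replicates often placed their summits apart. At the 17 loci of both replicates, the closest pair of summits lay 11 to 1049 bp apart, with a median of 313 bp, and 6 loci had a pair within 100 bp. The nearest summits lay on the same side of their genes at 9 loci and on opposite sides at 4, and at the other 4 loci a summit lay inside the gene. The gene table gives no strand, so sides are not named as before or after the gene.

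How steeply did summits thin out around tRNA genes? PPAR-alpha had 651 summits per Mb inside tRNA genes, 475 per Mb at 1 to 100 bp, 55.6 at 100 to 250 bp and 14.7 at 500 to 1000 bp. Beyond that it had 2.12 per Mb at 1 to 2 kb and 4.18 at 20 to 50 kb. The p53 replicate 2 list had 206 per Mb inside the genes and 167 at 1 to 100 bp, and replicate 1 had 0 and 103. Replicate 1 was highest at 100 to 250 bp, with 120 per Mb, where replicate 2 had 111.2. At 20 to 50 kb the p53 lists had 4.18 and 5.94 per Mb. The rise was therefore within about 1 kb in all 3 lists, and narrower in PPAR-alpha. Around the other short genes the highest density at any distance was 20.2 per Mb, in replicate 2 at 100 to 250 bp.

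**Figure D3:**
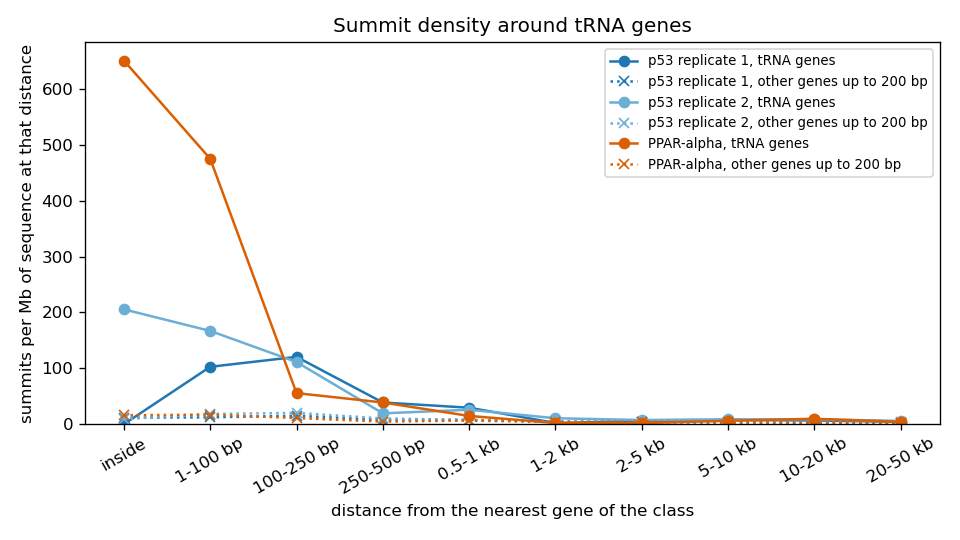
Summits per Mb of sequence (y axis) at increasing distance from the nearest gene (x axis), for tRNA genes (solid lines) and other genes of at most 200 bp (dotted lines), by list. PPAR-alpha starts at 651 per Mb inside tRNA genes and replicate 1 at 0, and the dotted lines stay at or under 20.2.

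Did neighbouring protein-coding genes go with the summits? Shares were highest at tRNA loci within 1 kb of a coding gene end and lowest beyond 20 kb. Of the 37 loci with a protein-coding gene boundary within 1 kb, 24 had a PPAR-alpha summit (64.9%, 47.5 to 79.8%), 11 a replicate 1 summit (29.7%) and 13 a replicate 2 summit (35.1%). At 1 to 5 kb, 12 of 37 loci had a PPAR-alpha summit (32.4%), 7 replicate 2 (18.9%) and 3 replicate 1 (8.11%). At 5 to 20 kb from a boundary, 24 of 103 loci had a PPAR-alpha summit (23.3%), 16 replicate 1 (15.5%) and 14 replicate 2 (13.6%). Beyond 20 kb these were 4, 3 and 1 of 110 loci, or 3.64%, 2.73% and 0.909%. Replicate 1 was thus lower at 1 to 5 kb than at 5 to 20 kb. Among the 110 loci beyond 20 kb are all 39 loci of a cysteine cluster on chromosome 6, described below, which had no summit.

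Both near to and far from coding genes, tRNA genes had higher shares than other genes of at most 200 bp. Counted as genes within 1 kb of a coding boundary, 66.0% of tRNA genes had a PPAR-alpha summit, 25.5% a replicate 1 summit and 38.3% a replicate 2 summit. The other short genes there had 12.5%, 12.8% and 19.2%. Among tRNA genes more than 5 kb from any coding boundary, 20.7% had a PPAR-alpha summit and 11.2% a summit of each p53 replicate. Among other genes of at most 200 bp at that distance the shares were 0.770%, 0.678% and 0.832% for PPAR-alpha, replicate 1 and replicate 2. Of the 72 PPAR-alpha summits within 1 kb of a tRNA gene, 65 lay nearer to it than to a coding boundary. So did 28 of 35 in replicate 1 and 40 of 41 in replicate 2. Summits with no coding boundary within 1 kb did so by the choice of window alone. Such a boundary lay within 1 kb of 24 PPAR-alpha, 10 replicate 1 and 12 replicate 2 summits. Of these, 7, 7 and 1 lay nearer to the boundary than to the tRNA gene. A boundary is the outer end of an annotated gene, so a start inside a gene, as at Polg, does not count here.

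Which tRNA genes were they? Proline genes had the highest PPAR-alpha share, with 11 of 16 genes (68.8%, 41.3 to 89.0%), and 7 and 6 had a summit in p53 replicates 1 and 2. Leucine genes had 14 of 26 in PPAR-alpha (53.8%, 33.4 to 73.4%) beside 2 and 5 in the p53 replicates. Methionine and aspartate genes had 8 of 16 each in PPAR-alpha, phenylalanine genes 4 of 7 and arginine genes 10 of 23. Glycine genes had 6 of 28 in replicate 1, 10 in replicate 2 and 9 in PPAR-alpha. Tyrosine genes had 0 of 10 in replicate 1 and 4 in both other lists.

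Cysteine genes, the most numerous, had the lowest PPAR-alpha share, with 3 of 57 (5.26%, 1.10 to 14.6%), beside 2 and 0 in the p53 replicates. Of these 57 genes, 48 lie in 1 cluster on chromosome 6 that had no summit in any list. All cysteine genes with a summit lie outside it. In histidine genes the same 3 of 11 had a summit in each list, in the pair n-THgtg3 and n-THgtg5 and in n-THgtg8. Genes of 1 array share summits, so these counts are not independent of each other. A stricter count takes only genes that were the nearest tRNA gene to a PPAR-alpha summit. By it proline had 9 of 16, methionine 7 of 16, aspartate 6 of 16 and leucine 7 of 26. Arginine had 5 of 23, phenylalanine 1 of 7, cysteine 2 of 57 and tryptophan 0 of 8. Proline thus stayed highest, but the order of the others changed. The PPAR-alpha intervals of proline and leucine lay above that of cysteine. The cysteine interval counts the 48 genes of that cluster as independent, so it does not describe cysteine genes elsewhere. Intervals of amino acids with few genes are wide.

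Of the 48 anticodons, 7 had no summit in any list, and together these held 13 genes. They were Gly-ACC, His-ATG, Ile-TAT, Ser-GGA, Lys-TTT, Ser-CGA and Thr-CGT. Both valine genes with anticodon TAC had a PPAR-alpha summit. Genes whose anticodon had 20 or more copies, which here means cysteine GCA and lysine CTT, had a PPAR-alpha summit in 8.75% of cases. Of these 80 genes, 48 are in 1 cysteine cluster on chromosome 6 that had no summit, and without it the share was 21.9%, or 7 of 32. Genes with 10 to 19 copies had one in 29.8%, with 4 to 9 copies in 39.6%, and with 1 to 3 copies in 42.3%. The p53 shares over the same classes, from most to fewest copies, were 6.25%, 10.6%, 17.2% and 15.4% in replicate 1 and 3.75%, 17.9%, 23.9% and 19.2% in replicate 2. Without that cluster the first of these were 15.6% in replicate 1 and 9.38% in replicate 2. How reads that match several copies were placed is not given in the sources used here, and its part in these shares was not tested.

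**Figure D4:**
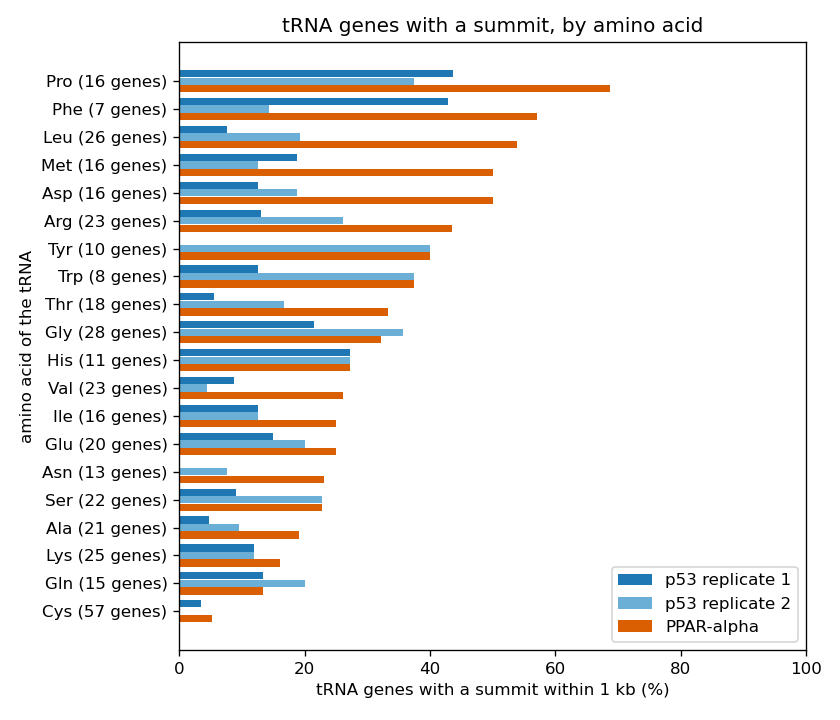
Percentage of tRNA genes (x axis) with a summit within 1 kb, by amino acid (y axis, with the number of genes) and list (bars). Proline stands highest in PPAR-alpha at 68.8% and cysteine lowest at 5.26%. Of the 57 cysteine genes, 48 lie in 1 cluster with no summit.

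How did arrays and chromosomes differ? Loci of several genes had summits more often than single genes. Of 220 loci of 1 gene, 14.1% had a PPAR-alpha summit, of 45 pairs 42.2%, and of 22 loci of 3 to 5 genes 63.6% (40.7 to 82.8%). Replicate 2 gave 7.73%, 17.8% and 45.5%, and replicate 1 gave 8.18%, 24.4% and 18.2%. A larger locus covers more sequence, and these shares are not corrected for it.

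Loci that stood alone had higher shares than loci in clusters. Loci were grouped when closer than 50 kb, and 108 stood alone. Of those, 32.4% had a PPAR-alpha summit, 18.5% a replicate 1 summit and 17.6% a replicate 2 summit. Of the 179 loci in the 17 clusters of 2 or more loci, small and large, the shares were 16.2%, 7.26% and 8.94%. Without the cysteine cluster described next they were 20.7%, 9.29% and 11.4% of 140 loci.

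The largest cluster lies on chromosome 6, from 48133937 to 48363603, and holds 48 genes, all for cysteine. None of its 39 loci had a summit in any list, which allows a share of up to 7.69% if loci are independent. Loci of 1 cluster may not be. On chromosome 13, 4 clusters held 101 genes in 73 loci, and 10 of these loci had a PPAR-alpha summit and 4 a summit of each p53 replicate. The cluster on chromosome 3 from 96322074 to 96501518 held 25 genes in 20 loci, of which 1 had a summit, the same one in all 3 lists. That locus holds n-TKctt16, n-THgtg8, n-TGtcc7 and n-TEctc13. Its scores were 2.74 and 2.37 in p53 replicates 1 and 2 and 7.88 in PPAR-alpha.

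The cluster on chromosome 11 from 69037003 to 69125248 holds 18 genes in 6 loci, and 5 of the loci had a replicate 2 summit, 4 a PPAR-alpha summit and 1 a replicate 1 summit. At 3 of the loci the replicate 2 and PPAR-alpha summits belonged to dense runs, in which a summit has 5 or more others of its list within 50 kb. Without dense runs 2 loci kept a replicate 2 summit, 1 a PPAR-alpha summit and 1 a replicate 1 summit. Its PPAR-alpha scores ran from 4.13 at n-TIaat5, n-TSaga4 and n-TTagt8 to 16.3 at n-TPcgg3, n-TDgtc9, n-TGtcc6 and n-TWcca7. Replicate 2 scores there were 2.37 to 2.97. On chromosome 14, from 51063883 to 51090718, 3 of 4 loci had a PPAR-alpha summit, led by n-TLaag8, n-TPagg4 and n-TTtgt3 with 18.01, and each p53 replicate had 1.

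On chromosome 13 the cluster from 23397060 to 23530419 held 36 genes in 22 loci, with a summit at 3 loci in each list, and that from 21848022 to 22050767 held 32 genes in 26 loci, with a summit at 0 in replicate 1, 1 in replicate 2 and 4 in PPAR-alpha. The cluster on chromosome 1 from 171033942 to 171111515 held 25 genes in 8 loci, of which 1 had a replicate 1 summit, 3 a replicate 2 summit and 2 a PPAR-alpha summit. Of the arrays with 5 genes, 3 lie in a row on chromosome 1 between 171064164 and 171081946, each in the order glutamate, glycine, aspartate, leucine, glycine. None of them had a summit. The fourth, on chromosome 13 from 23517203 to 23519684, holds n-TGgcc6, n-TMcat6, n-TStga1, n-TQttg4 and n-TQttg5. It had summits in replicate 2 (5.08) and PPAR-alpha (8.57). Of the 7 arrays with 4 genes, all 7 had a PPAR-alpha summit, 6 a replicate 2 summit and 2 a replicate 1 summit.

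The 13 tRNA loci of all 3 lists were ordered by the lowest of their 3 scores. The first was n-TGccc4, a glycine gene on chromosome 6 (86403893 to 86403963), 240 bp from a boundary of Tia1, which encodes an RNA-binding protein. It scored 10.7 in replicate 1, 7.58 in replicate 2 and 6.55 in PPAR-alpha. Its replicate 2 summit lay inside the gene, its PPAR-alpha summit 35 bp away and its replicate 1 summit 641 bp away. The replicate 1 summit was nearer to the coding boundary, at 401 bp.

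Next came n-TQttg6, a glutamine gene on chromosome 11 (95859172 to 95859243), with 8.81 in replicate 1, 5.88 in replicate 2 and 9.995 in PPAR-alpha. Its replicate 2 and PPAR-alpha summits lay inside the gene and its replicate 1 summit 53 bp away, and no coding boundary lay within 4 kb. The pair n-TWcca2 and n-TDgtc16 on chromosome 10 overlaps Tmpo, which encodes a lamina-associated protein, and scored 7.07, 5.88 and 7.20. There the PPAR-alpha summit lay 74 bp from the coding boundary and 271 bp from a tRNA gene, and the replicate 1 summit 165 and 180 bp, so both were nearer to the boundary. Proline genes n-TPtgg8 and n-TPagg7 on chromosome 7 lie 19337 bp from a coding boundary and scored 4.70, 9.40 and 6.55.

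The highest PPAR-alpha score at any tRNA locus was 41.3, at the arginine gene n-TRtcg5 shown above, where the p53 replicates scored 9.72 and 3.62. This gene lies inside the annotated span of Polg, which encodes the mitochondrial DNA polymerase. The PPAR-alpha summit lay 271 bp before the tRNA gene and the replicate 1 summit 248 bp before it, and the replicate 2 summit 63 bp after it. Polg runs on the opposite strand. Its RefSeq promoter window, which takes 250 bases before a Polg start and 50 after it, spans the tRNA gene. Counted along its 300 bases, the PPAR-alpha and replicate 1 summits fell beyond it, at bases 376 and 353, on the side of the gene body. Both were nearer to this start than to the tRNA gene.

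The remaining loci of the first 10 ended in a tie of 3 loci for the last places. They were n-TGccc7 (5.45, 2.97 and 4.70), n-TRcct1 (2.74, 3.62 and 12.3), the array of n-TPtgg4, n-TVaac7 and n-TLaag6 (2.74, 2.97 and 5.30), and the 3 tied ones. Those are the array on chromosome 3 above, n-TGgcc7 with n-TMcat7 (3.34, 2.37 and 6.55) and the array of n-TRtct4, n-TLtag3, n-TQctg6 and n-TKctt27 (3.34, 2.37 and 8.57). At the histidine pair n-THgtg3 and n-THgtg5 the scores were 2.18, 2.37 and 7.88, and at n-TPagg2 and n-TPcgg2 they were 6.24, 1.83 and 14.7.

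**Figure D5:**
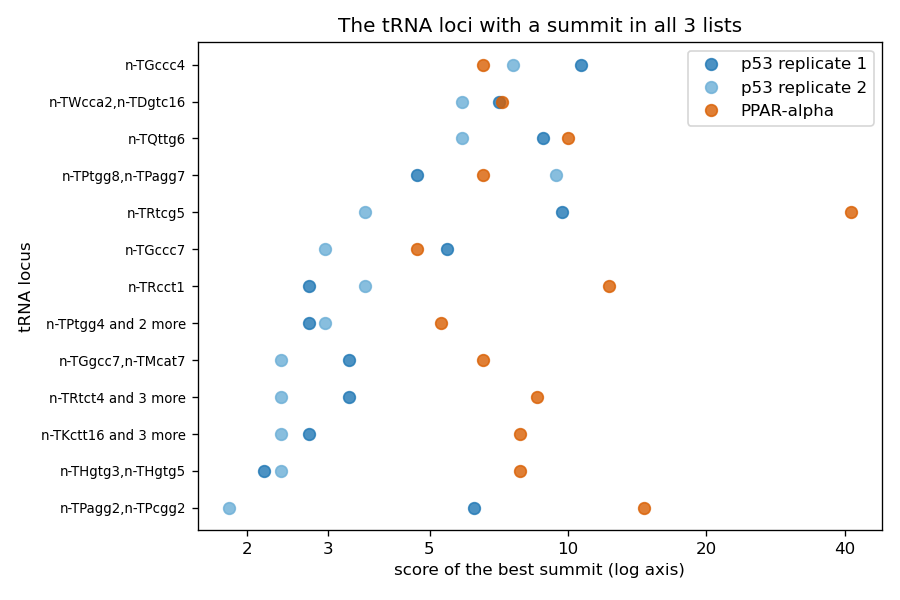
Score of the best summit (x axis, log scale) at the 13 tRNA loci (y axis) with a summit in all 3 lists; points are the lists, and scores of different lists come from separate calls. The arginine gene n-TRtcg5 has the highest point, 41.3 in PPAR-alpha.

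The 4 loci of both p53 replicates without PPAR-alpha held single genes. These were the glycine gene n-TGgcc4 on chromosome 1 (7.93 in replicate 1 and 4.33 in replicate 2), the glutamate gene n-TEttc6 on chromosome 14 (4.70 and 3.62), the arginine gene n-TRccg1 on chromosome 11 (3.34 and 6.72) and the serine gene n-TSaga9 on chromosome 4 (1.68 and 2.97). The nearest PPAR-alpha summit to n-TGgcc4 lay 6916 bp away, and to n-TEttc6 307948 bp away.

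PPAR-alpha stood alone at 25 loci. The highest was the array of n-TLtaa4, n-TRtct1, n-TVtac1 and n-TVtac2 on chromosome 19 (12011086 to 12012338), with 19.8 and its summit 50 bp from a gene. Then came n-TTtgt2 on chromosome 11, n-TDgtc12 with n-TSaga8 on chromosome 13 and n-TDgtc8 on chromosome 10, each with 9.995. Their summits lay 0, 39 and 8 bp from a gene. Tied for the next place were n-TLtag1 on chromosome 7 and the array of n-TMcat15, n-TLaag7 and n-TLaag5 on chromosome 13, with 8.57.

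How did scores at tRNA loci compare with their own list? In PPAR-alpha the median best score was 6.88 over the 64 loci, where the list's median was 4.70, and 75.0% of loci scored 5 or more, where 48.1% of the list did. In p53 replicate 1 the median was 3.99, equal to that of the list, and in replicate 2 it was 2.97 beside 3.62. Scores of 10 or more were reached at 12 of 64 loci in PPAR-alpha, 1 of 33 in replicate 1 and 0 of 35 in replicate 2. Of the summits of each list, 16.0%, 5.38% and 4.30% did so. A best score over several summits tends to be higher than that of a single summit. Taken alike as the best score of each gene with a summit, the PPAR-alpha median was 7.88 over tRNA genes and 5.30 over all genes. In replicate 1 it was 3.99 over both, and in replicate 2 it was 2.97 over tRNA genes and 3.62 over all genes.

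Did other genes of polymerase III and of tRNA metabolism have summits? Among other genes that this polymerase transcribes, those of 5S ribosomal RNA are given first. None of the 52 genes of 5S ribosomal RNA had a summit in any list, which allows a share of up to 5.77% if genes are independent. Most of them lie in 1 array on chromosome 8, from 123538784 to 123622046, so they are not. Of the 10 further genes, 2 had one in replicate 1, 3 in replicate 2 and 1 in PPAR-alpha. These are 20%, 30% and 10%, beside 2.08%, 2.35% and 1.84% of the other genes of at most 200 bp. They have intervals of 2.52 to 55.6%, 6.67 to 65.2% and 0.253 to 44.5% that hold the tRNA gene shares of all 3 lists. Several of the 10 genes, among them Rn7sk, Rn7s1, Rpph1 and Rmrp, are longer than 200 bp and so are not of that short class. Distance to coding genes was not matched either. Rn7sk, whose RNA restrains transcription elongation, had both p53 replicates (3.34 and 1.83), at 197 and 225 bp. Rn7s1, the RNA of the signal recognition particle, had replicate 1 (4.70). Rpph1, the RNA of RNase P, which trims the 5′ end of tRNAs, and Rmrp, the RNA of RNase MRP, had replicate 2 (4.33 and 2.37). Rny1, a Y RNA, had PPAR-alpha (3.06).

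Of 18 subunits of polymerase III, 2 had a summit in replicate 1 (11.1%), 7 in replicate 2 (38.9%) and 5 in PPAR-alpha (27.8%). Over all protein-coding genes the shares, as above, were 13.3%, 16.7% and 13.2%. No subunit had a summit in both p53 replicates. The PPAR-alpha summit counted at Polr3e is the one given above, 46 bp from n-TLaag4 and 307 bp from Polr3e. The highest scores were 20.6 at Polr2l and 5.30 at Polr3gl in PPAR-alpha, and 6.72 at Polr2h and 5.88 at Polr3g in replicate 2.

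Of 19 assembly factors and regulators, 4 had a summit in replicate 1 (21.1%), 9 in replicate 2 (47.4%) and 4 in PPAR-alpha (21.1%), beside the protein-coding 13.3%, 16.7% and 13.2%. Maf1, the repressor of polymerase III, had 71.9 in PPAR-alpha, 63 bp from the gene, and 2.74 in replicate 1. Gtf3c6, a TFIIIC subunit, had 13.04 in PPAR-alpha and 6.72 in replicate 2. Gtf3c3 and Gtf3c2, also of TFIIIC, had summits in all 3 lists, with 6.24, 5.08 and 2.11 at Gtf3c3. Gtf3c4 had 4.33 in replicate 2.

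Of 23 aminoacyl-tRNA synthetases and partners, which load tRNAs with amino acids, 8 had a summit in each p53 replicate (34.8%) and 5 in PPAR-alpha (21.7%). The protein-coding shares were 13.3% and 16.7% in the p53 replicates and 13.2% in PPAR-alpha. Aimp1, Vars, Gars, Dars and Farsb had one in all 3 lists. Scores were 18.7, 16.4 and 11.5 at the scaffold gene Aimp1 and 14.6, 17.4 and 11.5 at the valine enzyme gene Vars. At the glycine enzyme gene Gars they were 8.81, 5.88 and 5.30, and at Dars and Farsb alike 3.34, 5.88 and 5.91.

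Of 33 tRNA processing genes, 7 had a summit in replicate 1 (21.2%), 12 in replicate 2 (36.4%) and 6 in PPAR-alpha (18.2%). The intervals of replicate 1 (8.98 to 38.9%) and PPAR-alpha (6.98 to 35.5%) hold the protein-coding shares of 13.3% and 13.2%. The replicate 2 interval (20.4 to 54.9%) lies above the protein-coding 16.7%. So do the replicate 2 intervals of the subunits (17.3 to 64.3%) and of the assembly factors and regulators (24.4 to 71.1%). For those groups the intervals of replicate 1 and PPAR-alpha hold the protein-coding shares. Pop7, a subunit of RNase P, had 12.6 and 8.48 in the p53 replicates. The methyltransferase gene Nsun2 had 4.70, 9.40 and 12.3 in replicate 1, replicate 2 and PPAR-alpha. Mettl1, also a methyltransferase gene, had 7.88 in PPAR-alpha, and the deaminase gene Adat3 had 5.88 in replicate 2 and 7.20 in PPAR-alpha. With lists of this size the intervals are wide. That of the synthetases in each p53 replicate is 16.4 to 57.3%, which lies above the protein-coding 13.3% of replicate 1 and holds the 16.7% of replicate 2.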

How the data were processed

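The authors deposited 1 list of peak summits for each ChIP library, with a score. No label states its unit, and the deposited score was taken as −log10 of a p- or q-value because of its range and the files' layout. The submitters' processing notes name MACS2 2.1.2, Bowtie2 2.3.4.2 and Picard 2.9.0 without roles. They also name GRCh38, a human build, for mouse tissue. The positions were checked against GRCm38.p6: 49.4%, 49.1% and 42.1% of the autosomal summits of p53 replicate 1, p53 replicate 2 and PPAR-alpha lay at most 1 kb from the boundary of a protein-coding gene, and 1.89%, 1.60% and 2.02% at 5 to 6 kb. Not given in the sources used here were read numbers, thresholds, the control, read filters and the placing of reads with several matches. The input library is not analysed here.

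Positions are counted from 1. Shares have exact Clopper-Pearson 95% intervals over loci or genes, with no test. The number that a count of 0 allows is 3 counts of the total, and it takes members as independent. Counting was tested on simulated data. Of the tRNA genes, 5 in 3 loci have positions on chromosome 11 at or below 1440467, under every autosomal summit (the lowest is 3000415), and were kept as members with no summit. The 17 genes on X, of which 0 had a summit in any list, and the 22 mitochondrial genes were not members. No symbol marks a tRNA gene as a pseudogene. Of the polymerase III list, Rn7s6, Rnu6atac and Bcyrn1 were not matched.

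Named loci were the first 10 of all 3 lists by their lowest score, the first 5 of the p53 pair alone and of PPAR-alpha alone, the largest arrays, all other polymerase III RNA genes with a summit and the 4 highest-scoring of each further list. The members and lists were chosen with earlier results of these data known. Others named, such as n-TTagt9 and n-TLaag4, were chosen after their values were seen, for their sequence. Python 3.11.15, NumPy 2.4.6, SciPy 1.17.1, pandas 2.3.3 and Matplotlib 3.10.9 were used.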

Additional observations from a re-analysis of the deposited data

How the results depend on the processing

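PPAR-alpha had the highest share of tRNA loci with a summit of the 3 lists under all 13 alternatives tried for it, 2 of which were chosen after seeing the data. Those for the most numerous anticodons, for clustered loci and for the chromosome 11 cluster, given with those results, were also chosen after seeing the data. Shares that left their 95% interval are given as percentages of loci. At a window of 100 bp they were 2.79% for p53 replicate 1, 5.92% for replicate 2 and 1.05% for both replicates, and at 200 bp 6.27% for replicate 1. At 5 kb they were 17.4%, 18.1% and 28.9% for replicate 1, replicate 2 and PPAR-alpha, and 9.76% for both replicates. Without merging, replicate 2 had 17.1% and PPAR-alpha 29.7% of genes, and with merging under 5 kb replicate 1 had 16.2%, PPAR-alpha 28.8% and both replicates 9.60%. With scores of 5 or more they were 3.83%, 3.14% and 16.7%, and 1.05% for both replicates. That cut keeps 28.7%, 26.3% and 48.1% of the summits of replicate 1, replicate 2 and PPAR-alpha, so it does not treat the lists alike. In the 3000 highest-scoring summits of each list, replicate 2 had 8.36% and both replicates 3.48%. Without summits within 1 kb of a coding boundary PPAR-alpha had 15.0%, and at loci over 5 kb from one it had 13.1% and replicate 2 had 7.04%. Requiring replicate summits within 100 bp of each other gave 2.09% for both replicates, and leaving out either replicate gave 11.5% to 12.2%. At 100 bp the other polymerase III RNA genes had 0% in each list. The other 77 values stayed within their intervals, and the shares of all loci did so without dense runs as defined above, without the cysteine cluster of chromosome 6 and without the 3 loci below every autosomal summit. The alternative without tRNA pseudogenes was not run, as no symbol marks one. No paired analysis was possible because PPAR-alpha has 1 library and shares fewer than 2 replicate numbers with p53. Depth is unknown, so loci without a summit cannot be told from loci below detection.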
